A study of Rattus norvegicus with 8 samples.

Results

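The genes of the caveolae coat were followed in rat thyroid cells carrying a mutant or a wild-type human TSH receptor, with and without added iodide. The set holds 6 genes, the cavins Cavin3, Cavin1 and Cavin2 and the caveolins Cav1, Cav2 and Cav3, and takes every probe set that bears 1 of these symbols whatever its signal. That gave 10 of the 31099 probe sets on the array: 1 for Cavin3, 1 for Cavin2, 3 for Cav1, 4 for Cav2 and 1 for Cav3. Cavin1 had no probe set under its symbol and was not analysed here. The 6 genes were chosen by their signals in the 4 groups, which were already known, so their values below are a description and their counts carry no weight as evidence. They are 6 of the 14218 genes named by a single symbol.

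The cells were FRTL-5, a rat thyroid follicular line that needs TSH, in its SB5 sub-clone. The groups, of 2 arrays each, were L629F cells in 1 mM sodium iodide, L629F cells in 1 mM sodium chloride, WT cells in 1 mM sodium iodide and WT cells in 1 mM sodium chloride. Every group stably expressed a human TSH receptor, the L629F form (a change known from thyroid adenomas, which lets the receptor signal without TSH) or WT, and was grown with 5 mU/ml bovine TSH. Each receptor was represented by 1 line, so the receptor and the line that carries it cannot be told apart, and the labels give neither the length of the salt treatment nor whether the 2 arrays of a group were separate cultures. The measurement was the signal of each probe set on a 1-colour Affymetrix rat array, as made by MAS5 on a linear scale. Signals of different probe sets are not compared, since each set of probes has its own brightness.

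Caveolae are small flask-shaped pits of the plasma membrane. Caveolins are inserted into the inner leaflet as hairpins, where they bind cholesterol, and the cavins form a coat around them from the cytosol. The pits are known for buffering membrane tension and for holding signalling proteins. In thyroid follicular cells caveolin-1 has been described at the apical pole beside the enzymes of hormone synthesis, whereas FRT, another line from the rat thyroid, is known for having no caveolin-1.

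The labelled cell type was checked against thyroid follicular genes. Of 10 on the array, 8 were over the dim level (Tg, Pax8, Nkx2-1, Foxe1, Hhex, Slc5a5, Tshr and Duox2) and Slc26a4 and Iyd were under it. The dim level is a mean signal of 69.9, below which the lowest 40% of probe sets were left out of testing. The summed signal of the thyroid genes ran from 51230 to 55800 on the L629F arrays and from 45200 to 56530 on the WT arrays. Of the 8 tested, 1 was called between the lines and 2 between the salts, beside 3.16% and 1.66% of all genes tested. Those called are named after their values were seen. Duox2, which makes the peroxide for hormone synthesis, was higher in L629F than in WT cells (0.50 ± 0.11 averaged over the salts, limma adjusted p = 0.0255). Slc5a5, the iodide transporter, was lower with iodide than with chloride (-1.02 ± 0.21 averaged over the lines, adjusted p = 0.0258) and Hhex, a thyroid transcription factor, was higher with iodide (0.38 ± 0.09, adjusted p = 0.0434). The Duox2 and Hhex calls each held in 1 of 8 fits that left out an array, that without WT iodide replicate 1. The Slc5a5 call held in 3 of 8, those without L629F iodide replicate 2, L629F chloride replicate 1 or WT iodide replicate 2. When arrays were centred on all probe sets Duox2 was at 0.32 (adjusted p = 0.0675), and under quantile scaling Hhex was at 0.19 (adjusted p = 0.156). With no dim filter the calls of Slc5a5 (limma adjusted p = 0.0788) and Hhex (0.132) were lost. Without an intensity trend in the variance model Slc5a5 (limma adjusted p = 0.176), Hhex (0.218) and Duox2 (0.0739) all lost theirs. Hhex also lost its call with the GAPDH 3′ to 5′ ratio as a covariate (limma adjusted p = 0.0946). The lower part of the arrays was brighter in L629F cells. Their 25th percentile of all signals lay between 40.8 and 43.1, against 29.3 to 31.6 on the WT arrays, and their median between 138.3 and 147.5, against 118.1 to 126.7. Arrays of the same group correlated at 0.96 to 0.98 on the log2 scale.

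Cavin3 (also called Prkcdbp or SRBC) is the cavin that binds protein kinase C delta and joins the coat through Cavin1. RefSeq places it on chromosome 1 of GRCr8, from 169238384 to 169239973. Its single probe set, 1367691_at, read 112.4 and 107.3 in L629F cells with iodide and 101.9 and 79.7 in L629F cells with chloride. It read 453.5 and 481.5 in WT cells with iodide and 429.3 and 447.2 in WT cells with chloride. All 4 L629F arrays lay under all 4 WT arrays, with no overlap, and the highest L629F signal was 112.4 against a lowest WT signal of 429.3. The mean signal was 100.3 ± 14.4 in L629F cells and 452.9 ± 21.6 in WT cells (SD, n = 4 each), a WT mean 4.51 times the L629F mean. None of the 8 signals was under the dim level, so Cavin3 did not enter the test through the WT arrays alone. On the L629F arrays the signal lay between the 25th percentile and the median of all probe sets, and on the WT arrays over the median. The share of all genes whose arrays separated by line or by salt without overlap was not counted, here or for the genes named below. Between the lines, averaged over the salts, 1991 of the 10047 genes tested had an unadjusted limma p under 0.05.

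**Figure D1:**
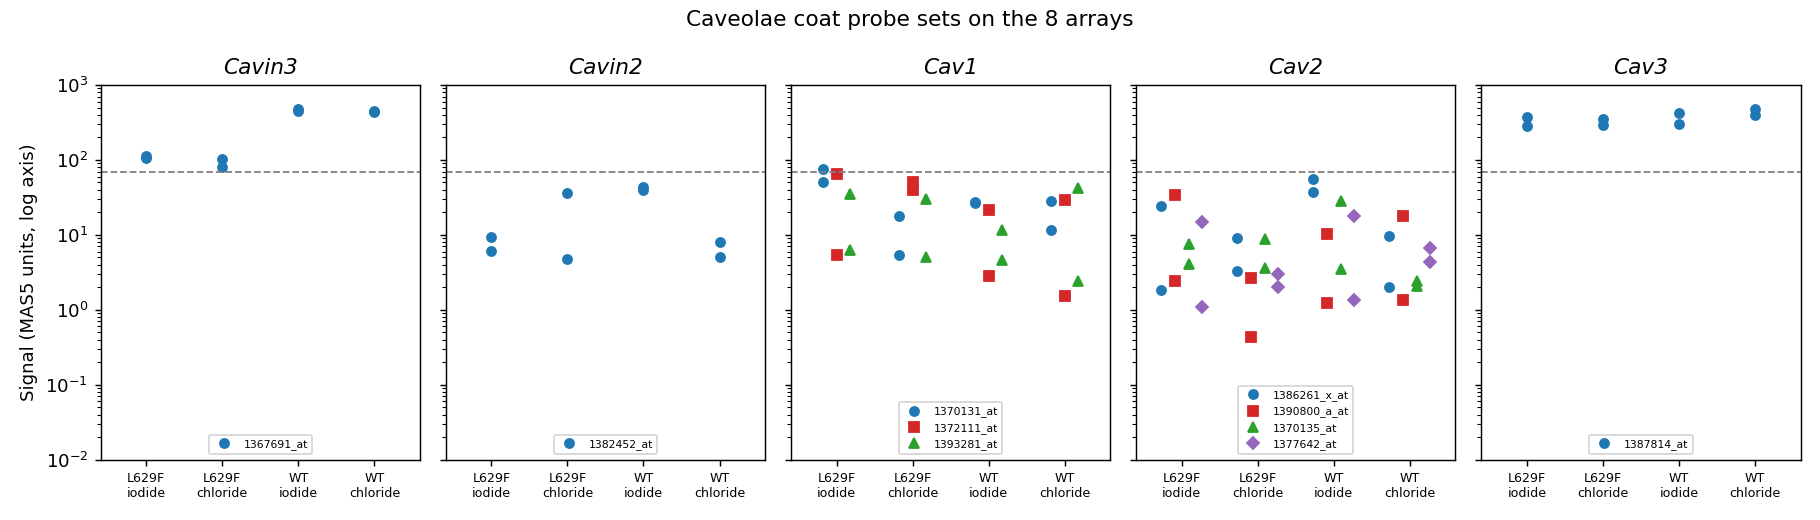
Signal of the 10 caveolae coat probe sets in the 4 groups, on a log axis in MAS5 units, with 1 point per array and a colour per probe set; the dashed line is the dim level of 69.9. Cavin3 is the gene whose L629F points (79.7 to 112.4) and WT points (429.3 to 481.5) stand apart, Cav3 lies over the line on every array, and the probe sets of Cavin2, Cav1 and Cav2 lie under it apart from 1 Cav1 point.

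On the scale of the fit, log2(signal + 35.3), Cavin3 was lower in L629F cells than in WT cells by a difference of -1.85 ± 0.17 averaged over the salts (SE; 95% interval -2.23 to -1.48). The difference was -1.79 ± 0.24 with iodide and -1.92 ± 0.24 with chloride. The added constant draws low signals together, and with a constant of 1 the averaged difference was -2.17. Of the 10047 genes tested with limma, Cavin3 had the lowest L629F minus WT difference averaged over the salts, followed by Cstpp1 at -1.70 ± 0.35 and Pdzrn3 at -1.51 ± 0.20, 2 genes named for their rank after their values were seen. It ranked first of 10047 with chloride and second with iodide. These ranks and sizes come from the contrast in which the gene stood out and support nothing further. In these bulk RNA samples, fewer cells with the transcript and less transcript per cell cannot be told apart.

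Of the 2 caveolae genes over the dim level, 1 (Cavin3, lower in L629F cells) was past an adjusted p of 0.05 in the averaged receptor comparison, in which 1.09% of all genes tested were called lower and 3.16% called in either direction. It was 1 of 2 again with iodide, beside 0.139% of all genes called lower and 0.508% in either direction, and with chloride, beside 0.149% called lower and 0.488% in either direction. The call within chloride was lost without WT chloride replicate 1 or replicate 2 (0 of the 2 genes), and the call within iodide without L629F iodide replicate 2 (0 of the 2). The difference itself was -1.94 and -1.89 in the first 2 cases and -1.77 in the third. The counts of all genes called moved too. With iodide they fell to 8 without either L629F iodide array and lay between 17 and 25 without any other array, against 51 with all arrays. With chloride they were 4 and 9 without WT chloride replicates 1 and 2, 5 and 8 without L629F chloride replicates 1 and 2, and 30 to 66 without an iodide array, against 49. The split of all genes between higher and lower depended on scaling. It was 207 higher and 110 lower on the deposited scale, and 145 higher and 1236 lower when every array was brought to the same median over all its probe sets, which moved the median difference of all genes to -0.17. By the same centring the split became 17 higher and 52 lower with iodide, against 37 and 14, and 18 and 73 with chloride, against 34 and 15. Cavin3 was at -2.03 on that scale.

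Between the salts, the interval of the Cavin3 difference spanned 0 in both lines. The iodide minus chloride difference was 0.21 ± 0.24 in L629F cells (95% interval -0.32 to 0.73) and 0.09 ± 0.24 in WT cells (-0.44 to 0.61), and 0.15 ± 0.17 averaged over the lines (-0.22 to 0.52). The mean signal was 109.9 ± 3.57 with iodide and 90.8 ± 15.7 with chloride in L629F cells, and 467.5 ± 19.8 with iodide and 438.3 ± 12.6 with chloride in WT cells (SD, n = 2 each). Both iodide arrays were over both chloride arrays in each line. The iodide difference in L629F cells was 0.12 ± 0.34 above that in WT cells (95% interval -0.62 to 0.86). Of the 2 caveolae genes over the dim level, 0 were called in the averaged iodide comparison, in which limma called 1.66% of all genes, and 0 were called in L629F cells (0.0896% of all genes) or in WT cells (0.468%). At an unadjusted p under 0.05, 1531, 825 and 1261 of all genes passed in these 3 comparisons. No gene of the 10047 passed limma's adjusted threshold for a difference between the lines in the iodide response, and 419 had an unadjusted p under 0.05.

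**Figure D2:**
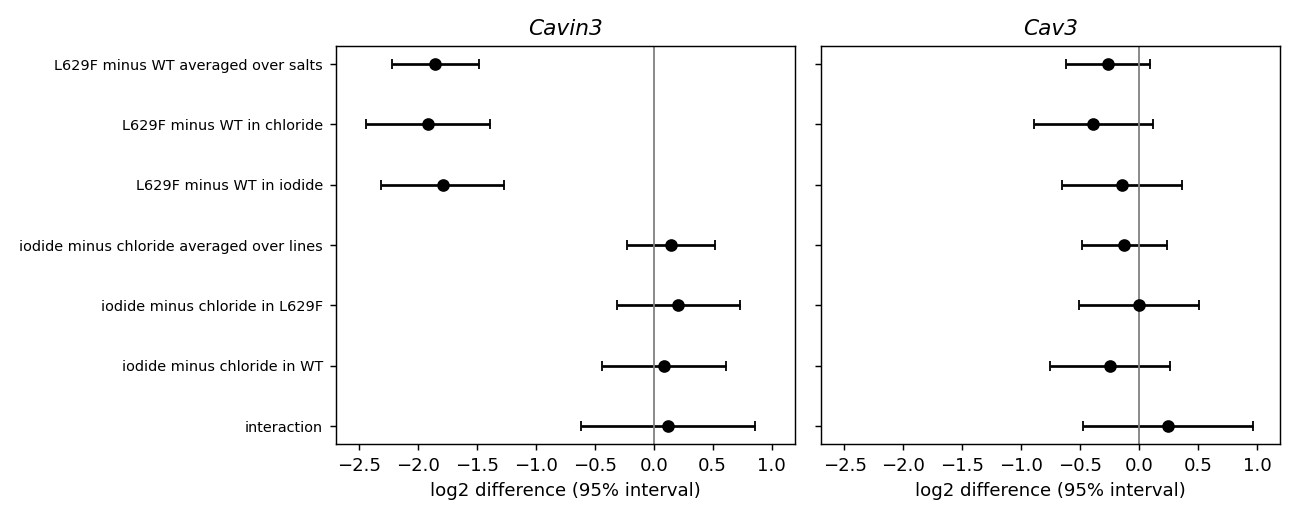
Log2 differences of Cavin3 and Cav3 in the 7 comparisons, as points with 95% intervals from the fit over all genes; the x axis is the difference in log2(signal + 35.3) and the vertical line is 0. Cavin3 lies at -1.85, -1.92 and -1.79 in the receptor comparisons, and every other interval of the 2 genes spans 0.

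Cavin2 (also called Sdpr), a cavin that helps bend the membrane, lies on chromosome 9 of GRCr8 from 57794007 to 57806024. Its probe set 1382452_at read 6.05 and 9.35 in L629F cells with iodide and 35.7 and 4.73 in L629F cells with chloride. In WT cells it read 42.9 and 39.6 with iodide and 7.93 and 5.06 with chloride. All 8 signals were under the dim level, and 6 were under the 25th percentile of their own array. The iodide pair in WT cells stood above the other 6 arrays, the next being 35.7. At this brightness such a gap is within the range that replicates of 1 group covered (4.73 and 35.7 in L629F cells with chloride). In a fit that kept dim probe sets, the iodide minus chloride difference of Cavin2 was -0.31 ± 0.35 in L629F cells and 0.87 ± 0.35 in WT cells.

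The caveolins of non-muscle cells are Cav1, which drives the formation of the pit, and Cav2, which needs Cav1 to reach the surface. Cav3 takes the place of Cav1 in muscle. Cav2 and Cav1 are neighbours on chromosome 4 of GRCr8, from 46582681 to 46590058 and from 46606538 to 46639616, with 16.5 kb between them. Cav3 lies apart on the same chromosome, from 147137993 to 147153967. The RefSeq start regions of the 3 caveolins, 250 bases before to 50 after the start, are shown to set the caveolin genes beside each other; they were not chosen for, and are not set against, their signals. Capitals mark matches to the searched motifs, in either orientation.
Cav3 (chr4:147137743-147138042, plus strand): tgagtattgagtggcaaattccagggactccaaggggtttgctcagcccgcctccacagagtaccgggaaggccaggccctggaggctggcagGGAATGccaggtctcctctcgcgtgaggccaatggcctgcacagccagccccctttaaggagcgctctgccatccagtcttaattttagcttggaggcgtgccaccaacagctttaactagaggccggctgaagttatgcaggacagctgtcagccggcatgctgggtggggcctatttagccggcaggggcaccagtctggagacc
Cav2 (chr4:46582431-46582730, plus strand): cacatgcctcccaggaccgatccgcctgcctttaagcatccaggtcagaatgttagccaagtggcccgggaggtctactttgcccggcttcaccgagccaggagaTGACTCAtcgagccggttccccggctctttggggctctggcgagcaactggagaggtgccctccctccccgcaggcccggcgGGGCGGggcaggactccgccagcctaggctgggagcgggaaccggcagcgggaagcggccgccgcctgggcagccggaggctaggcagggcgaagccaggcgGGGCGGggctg
Cav1 (chr4:46606288-46606587, plus strand): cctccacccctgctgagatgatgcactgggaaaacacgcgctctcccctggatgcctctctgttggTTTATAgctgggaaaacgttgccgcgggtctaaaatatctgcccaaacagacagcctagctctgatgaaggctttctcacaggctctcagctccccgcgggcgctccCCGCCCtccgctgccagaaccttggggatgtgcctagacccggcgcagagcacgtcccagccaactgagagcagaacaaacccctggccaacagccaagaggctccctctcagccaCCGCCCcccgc

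The capitals in Cav3 are GGAATG, the core bound by TEAD factors, which 14.2% of 33469 rat start regions of this length hold. In Cav2 they are TGANTCA, the AP-1 motif (7.33% of start regions), a palindrome that matched on both strands, and GGGCGG, the GC box (33.1%), at 2 places. The Cav1 start region held the GC box at 2 places and the TATA box TATAAA (14.2%), all on the minus strand. A second annotated Cav1 start had no match. Cavin1 held 1 GC box and Cavin2 1 GGAATG. None of the 6 start regions held TGACGTCA (1.83%), the element bound by CREB downstream of TSH and cAMP, its 5-letter core TGACG (21.2%), the E-box CACGTG (6.42%) or the sterol element TCACCCCAC (0.484%). The motifs were searched on both strands, and TGACG lies within TGACGTCA. A match is a run of letters and shows no binding. Of the 6 genes, 5 had a start region in the table; Cavin3 did not.

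Cav3 was read over the dim level on every array by its single probe set, 1387814_at. The signal was 279.4 and 372.1 in L629F cells with iodide and 294.7 and 354.2 in L629F cells with chloride. In WT cells it was 425.5 and 303.6 with iodide and 475.0 and 395.5 with chloride. Both L629F arrays lay under both WT arrays with chloride, whereas the lines overlapped with iodide. The L629F minus WT difference was -0.26 ± 0.17 averaged over the salts (95% interval -0.62 to 0.09), -0.14 ± 0.24 with iodide and -0.39 ± 0.24 with chloride. The iodide minus chloride difference was -0.12 ± 0.17 averaged over the lines (-0.48 to 0.24), -0.0018 ± 0.24 in L629F cells and -0.25 ± 0.24 in WT cells. These differences were of the size of the spread between replicates. Cavin3 and Cav3 had a correlation of 0.52 over the 8 arrays, which share their line and salt groups.

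A Cav3 signal in thyroid cells was set beside muscle markers, since Cav3 is the caveolin of muscle. Of 7 smooth and striated muscle genes, 5 were over the dim level (Myh11, Acta2, Des, Cnn1 and Ckm). Tagln, a defining smooth muscle gene, read between 2.38 and 7.40 and Myod1, which defines the skeletal muscle lineage, between 1.99 and 10.4, both under it. Cnn1, the smooth muscle calponin, at 2830 to 6427, made up most of the summed muscle signal. The sum ran from 5057 to 6935 on the L629F arrays and from 3386 to 6952 on the WT arrays, and from 3386 to 5260 with iodide and from 6269 to 6952 with chloride. Cnn1 was the 1 list member past the threshold, chosen after its values were seen. Of all genes tested, 3.16% were called between the lines and 1.66% between the salts. Cnn1 was lower with iodide (-0.77 ± 0.09 averaged over the lines, limma adjusted p = 0.000987) and higher in L629F cells (0.36 ± 0.09, adjusted p = 0.0479). The higher level in L629F cells lost its call in each of the 8 fits that left out an array, and was 0.18 (adjusted p = 0.193) when arrays were centred on all probe sets. The iodide minus chloride differences of Myh11, Acta2, Des and Ckm were -0.07 ± 0.25, -0.02 ± 0.39, 0.12 ± 0.24 and 0.18 ± 0.26, and 0 of these 4 were called. The part of this in the Cav3 signal was not tested.

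Cav1, the defining caveolin outside muscle, had 3 probe sets, all under the dim level by their mean. The brightest, 1370131_at, read 74.8 and 50.1 in L629F cells with iodide and 18.1 and 5.39 in L629F cells with chloride. In WT cells it read 26.8 and 27.9 with iodide and 28.6 and 11.6 with chloride. The 2 L629F iodide arrays stood above the other 6, and the 74.8 was the 1 caveolin-1 signal over the dim level. The other Cav1 probe sets did not show that order. On 1372111_at the L629F iodide arrays read 64.8 and 5.45, the L629F chloride arrays 39.4 and 50.1, the WT iodide arrays 21.3 and 2.79, and the WT chloride arrays 28.9 and 1.55. On 1393281_at the 8 signals ran from 2.45 to 42.8, with the L629F iodide pair at 34.6 and 6.32. In the fit that kept dim probe sets, the iodide minus chloride difference of 1370131_at was 1.06 ± 0.34 in L629F cells and 0.19 ± 0.34 in WT cells. The iodide difference in L629F cells minus that in WT cells was 0.86 ± 0.48, with a 95% interval from -0.20 to 1.93. The L629F minus WT difference of 1370131_at was 0.63 ± 0.34 with iodide and -0.23 ± 0.34 with chloride.

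Cav2 had 4 probe sets and no signal over the dim level. The brightest, 1386261_x_at, read 1.86 and 24.3 in L629F cells with iodide and 3.29 and 9.07 in L629F cells with chloride. In WT cells it read 37.0 and 56.1 with iodide and 2.03 and 9.63 with chloride. The WT iodide pair was the highest. On the other 3 probe sets the WT iodide arrays overlapped the rest: 1390800_a_at ran from 0.43 to 34.0, 1370135_at from 2.10 to 28.2 and 1377642_at from 1.09 to 17.8 over the 8 arrays. On these 3 probe sets all 8 signals lay under the 25th percentile of their array. The iodide minus chloride difference of 1386261_x_at was 0.19 ± 0.34 in L629F cells and 0.99 ± 0.34 in WT cells. A low signal does not show that a transcript is absent, and no detection calls were used here.

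Other cell types rich in caveolae were looked for by their markers. Of 5 adipocyte genes, 0 were over the dim level, with sums of 136.6 to 239.9 on L629F arrays and 83.5 to 287.6 on WT arrays. Of 6 endothelial genes on the array, 1 (Vwf) was over it, with sums of 288.3 to 505.1 on L629F arrays and 290.6 to 501.0 on WT arrays. Of 6 fibroblast genes, 2 were over it, with sums of 311.6 to 506.2 on L629F arrays and 300.6 to 419.5 on WT arrays. The sums of the lines overlapped in each list. The 3 genes over the dim level (Vwf, Col1a1 and Pdgfra) were the ones tested. Of these, 0 passed limma's threshold in the averaged receptor or iodide comparison, beside 3.16% and 1.66% of all genes. Of these, Pdgfra and Vwf had lower means in L629F cells, as Cavin3 did, and Col1a1 a higher one (0.34 ± 0.24, limma adjusted p = 0.47). The endothelial and fibroblast genes under the dim level were mixed. Kdr, Emcn, Cldn5, Col1a2, Col3a1 and Lum had higher means in L629F cells in both salts, and Tek and Dcn lower ones. Pecam1 was lower with iodide and higher with chloride. Pdgfra, a receptor of fibroblasts, read 141.5 and 27.8 with iodide and 67.8 and 59.1 with chloride in L629F cells, against 226.3 and 117.2 with iodide and 143.0 and 130.1 with chloride in WT cells. Its averaged L629F minus WT difference was -0.86 ± 0.33 (limma adjusted p = 0.167). Vwf, the endothelial clotting factor, read 67.6 and 56.9 with iodide and 130.8 and 155.1 with chloride in L629F cells, against 141.2 and 280.6 with iodide and 259.2 and 137.4 with chloride in WT cells. Its difference was -0.81 ± 0.26 (adjusted p = 0.108). The lines overlapped in both genes. When arrays were centred on all probe sets, Pdgfra (-1.03, adjusted p = 0.0496) and Vwf (-0.98, adjusted p = 0.0286) passed. Apart from the 141.5, the L629F signals of Pdgfra were under the dim level of 69.9, and its WT signals were over it. Pdgfra thus entered the test through the WT arrays, and its pass is a description only. The Vwf signals in L629F cells with iodide were also under the dim level. The part of these signals in the Cavin3 difference was not tested.

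RNA quality was read from the 3′ to 5′ signal ratio of GAPDH. It was 2.12 ± 0.41 on the L629F arrays and 1.82 ± 0.88 on the WT arrays (SD, n = 4 each). The two-sided exact permutation p was 0.4. The ratio was 2.32 ± 0.72 with iodide and 1.62 ± 0.40 with chloride (exact p = 0.171). For beta-actin the ratios were 6.56 ± 0.92 and 5.02 ± 2.98 by line in the same order (exact p = 0.229). The smallest p that 4 against 4 arrays allow is 0.0286. With the GAPDH ratio as a covariate the averaged L629F minus WT difference of Cavin3 was -1.85.

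The other genes of the caveola and of membrane rafts were counted over 5 lists, which hold 70 genes, 61 of them on the array and 49 over the dim level. In L629F against WT cells averaged over the salts, 1 of the 49 rose and 1 fell, beside 2.06% and 1.09% of all genes. Their median difference was -0.03, against -0.0036 for all genes tested. With iodide against chloride averaged over the lines, 0 rose and 2 fell, beside 0.547% and 1.11% of all genes, with a median of -0.08 against 0.01. Under centring on all probe sets 99 genes rose and 96 fell in that iodide comparison over all genes, against 55 and 112 on the deposited scale, and under quantile scaling 35 and 125. Without an intensity trend in the variance model, the 4 list calls described next were all lost (limma adjusted p = 0.151 for Vcl, 0.0535 for St3gal5, 0.166 for Anxa6 and 0.0825 for Scarb1). With no dim filter Vcl (adjusted p = 0.0929) and Anxa6 (0.0651) were lost.

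Among caveola accessory proteins, the EHD, pacsin, dynamin and kinase genes that bind or restrain the pit, 0 of 11 tested were called in either comparison. The smallest p belonged to Flna, filamin A, an actin cross-linker that binds caveolin-1. Its signal was 3387 and 3862 in L629F cells with iodide, 2874 and 4272 in L629F cells with chloride, 1899 and 3005 in WT cells with iodide and 4265 and 4158 in WT cells with chloride. The averaged iodide minus chloride difference of Flna was -0.38 ± 0.15 (limma adjusted p = 0.23). It passed with the GAPDH ratio as a covariate, at -0.68 (adjusted p = 0.0076).

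Among other raft scaffolds and raft proteins, 1 of 11 fell with iodide and 0 were called between the lines. The gene was Anxa6, an annexin that binds membranes in the presence of calcium and is tied to cholesterol transport. It read 1813 and 2170 in L629F cells with iodide against 2254 and 3195 with chloride, and 1728 and 2111 in WT cells with iodide against 3428 and 3202 with chloride. Each iodide array was under each chloride array, in both lines. The averaged difference was -0.61 ± 0.13 (limma adjusted p = 0.029). The call was lost without L629F iodide replicate 1, L629F chloride replicate 2, WT iodide replicate 1 or either WT chloride array, with differences from -0.63 to -0.48.

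Raft lipid genes, for cholesterol, sphingolipid and ganglioside handling, had 1 of 7 lower in L629F cells and 1 of 7 lower with iodide. St3gal5 makes GM3, the first ganglioside of the series and a lipid of rafts and caveolae. It read 1476 and 1317 with iodide and 1447 and 1493 with chloride in L629F cells, and 1721 and 1926 with iodide and 2412 and 2386 with chloride in WT cells. Every L629F array was under every WT array. The averaged difference was -0.54 ± 0.10 (limma adjusted p = 0.0137), and the call was lost without L629F chloride replicate 1 or either WT chloride array (-0.54 to -0.52).

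Scarb1, the HDL receptor SR-BI, which delivers cholesterol and has been placed in caveolae, read 1185 and 1389 with iodide and 1581 and 1910 with chloride in L629F cells. In WT cells it read 901.6 and 1003 with iodide and 1842 and 1808 with chloride. Every iodide array was under every chloride array. Its averaged difference was -0.67 ± 0.11 (limma adjusted p = 0.00929), with -0.92 ± 0.16 in WT cells (adjusted p = 0.0262) and -0.43 ± 0.16 in L629F cells (adjusted p = 0.506). The difference between the lines in that response, 0.49 ± 0.23, did not pass (adjusted p = 0.993). The averaged call was lost without L629F iodide replicate 1, L629F chloride replicate 2 or either WT chloride array (-0.68 to -0.60). Without an intensity trend 0 genes were called with iodide in WT cells, so the WT call of Scarb1 was lost too. In a fit of every kept probe set, the second Scarb1 probe set had an averaged iodide difference of -0.81 ± 0.20 (limma adjusted p = 0.084). Its L629F minus WT difference was -0.27 ± 0.20, against 0.175 ± 0.12 on the main probe set.

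Receptors and signalling proteins described in caveolae had 0 of 8 called in either comparison. The smallest p was that of Gnaq, the alpha subunit of the G protein Gq, which binds caveolin and which the TSH receptor can also engage. Gnaq read 51.7 and 78.0 in L629F cells with iodide, 93.6 and 114.5 in L629F cells with chloride, 17.0 and 59.6 in WT cells with iodide and 95.5 and 132.2 in WT cells with chloride. The 4 iodide arrays averaged 51.6 ± 25.6, under the dim level, and the 4 chloride arrays 109.0 ± 18.1 (SD), so Gnaq entered the test through the chloride arrays. The averaged iodide minus chloride difference was -0.78 ± 0.30 (limma adjusted p = 0.218) and depended on the added constant, at -1.24 with a constant of 1.

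Targets of YAP and SRF, which respond to membrane and actin tension, had 1 of 12 higher in L629F cells and 0 called with iodide. The gene was Vcl, vinculin, which links focal adhesions to actin. Its brightest probe set read 9375 and 6826 with iodide and 9354 and 7508 with chloride in L629F cells, and 4420 and 6624 with iodide and 5033 and 6131 with chloride in WT cells. Every L629F array was over every WT array. The averaged difference was 0.58 ± 0.14 (limma adjusted p = 0.0445). Its other 2 probe sets had differences of 0.14 and 0.02, and the mean over the 3 gave 0.25 (adjusted p = 0.282). The Vcl call was also lost when any of 6 arrays was left out, namely L629F iodide replicate 1, either L629F chloride array, WT iodide replicate 1 or either WT chloride array (0.43 to 0.65).

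**Figure D3:**
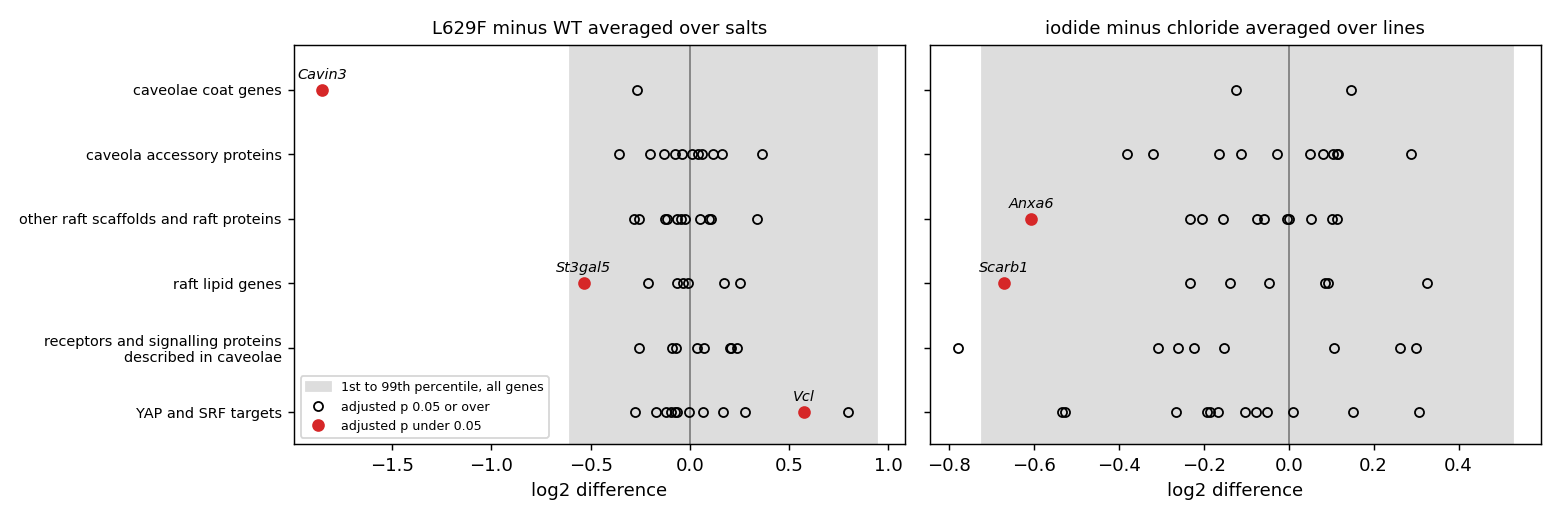
Log2 differences (x axis, log2(signal + 35.3)) of the tested genes of the caveolae coat and of the 5 lists, 1 circle per gene and 1 row per list, for L629F minus WT (left) and iodide minus chloride (right); filled circles passed an adjusted p of 0.05 and the grey band spans the 1st to the 99th percentile of all 10047 genes. Cavin3, at -1.85, lies outside the band, which runs from -0.61 to 0.94 in the receptor comparison, while the filled circles of St3gal5, Vcl, Anxa6 and Scarb1 lie within it.

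The genes around Cavin3 on chromosome 1 were read next, in a window of 500 kb chosen after the data had been seen. It holds 12 tested genes, 1 before Cavin3 (Fhip1b, 78.1 kb away) and 11 after it, from Smpd1, the acid sphingomyelinase, at 64.8 kb to Mrpl17 at 334 kb. Of these, 0 passed limma's threshold in the averaged receptor comparison (3.16% of all genes did), and their L629F minus WT differences ran from -0.27 (Taf10) to 0.30 (Apbb1). Ilk, the integrin-linked kinase, at 261 kb, was at -0.17 ± 0.10 (adjusted p = 0.361). It passed when arrays were centred on all probe sets, at -0.34 (adjusted p = 0.0361).

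**Figure D4:**
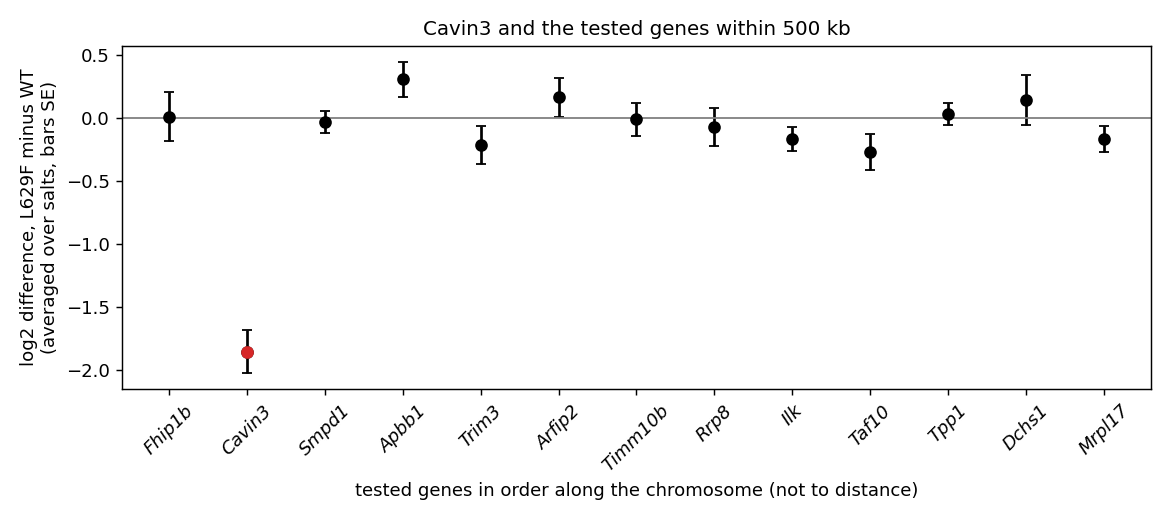
L629F minus WT difference averaged over salts (y axis, log2(signal + 35.3), bars SE) of Cavin3 and the 12 tested genes within 500 kb, in their order along chromosome 1 and not to distance. Cavin3 is at -1.85 and the 12 neighbours between -0.27 and 0.30.

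Near the caveolins, Capza2, an actin capping protein 304 kb from Cav1, was at -0.34 ± 0.11 in L629F against WT cells (limma adjusted p = 0.0987). ST7, 368 kb from Cav1, was at -0.07 ± 0.13. Rad18, a ubiquitin ligase that acts in DNA repair, 137 kb from Cav3, was at -0.41 ± 0.12 (adjusted p = 0.078). Capza2 and Rad18 passed when arrays were centred on all probe sets, at -0.51 (adjusted p = 0.015) and -0.58 (adjusted p = 0.0149).

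The genes most like Cavin3 were taken by Pearson correlation of log2 values over the 8 arrays. They were Chchd3, a protein of the mitochondrial inner membrane, at 0.98, Tbcb, a tubulin folding cofactor, at 0.98, and Arsb, a lysosomal sulfatase, at 0.98. Within a line, over 4 arrays each, the correlation of Chchd3 with Cavin3 was -0.13 in L629F cells and -0.88 in WT cells, with no likeness inside either line. For Tbcb it was 0.58 in L629F cells and 1.00 in WT cells, and for Arsb 0.22 and 0.87 in the same order. Chchd3 averaged 1428 ± 37.3 in L629F cells and 2133 ± 59.1 in WT cells (SD, n = 4 each). Arsb averaged 574.5 ± 8.51 in L629F cells and 864.9 ± 63.8 in WT cells.

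The L629F minus WT difference was -0.57 ± 0.10 for Chchd3 (limma adjusted p = 0.00804), -0.56 ± 0.12 for Arsb (adjusted p = 0.0248) and -0.28 ± 0.09 for Tbcb (adjusted p = 0.122). The Arsb call was kept in only 1 of the 8 fits that left out an array, that without WT iodide replicate 1, and its difference stayed between -0.61 and -0.51 in these fits. Tbcb passed when arrays were centred on all probe sets (-0.45, adjusted p = 0.0149). The gene least like Cavin3 was Chac1, an enzyme that degrades glutathione and is induced through ATF4, with a correlation of -0.99. Within a line it was -0.94 in L629F cells and -0.25 in WT cells. Chac1 averaged 2062 ± 241.9 in L629F cells and 745.4 ± 68.5 in WT cells (SD, n = 4 each), a difference of 1.42 ± 0.12 (adjusted p = 2.35e-05). Since all 4 genes were chosen for following Cavin3, whose lines differ, their line differences are tied to that choice.

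For Cav3 the 3 most like genes were Ostf1 (0.97), Cdkn2c (0.95) and Atg101 (0.95), and the least like was Dync1li1, a light chain of the dynein motor (-0.99). None of these passed limma's threshold between the lines, with differences of -0.10, -0.29, -0.41 and 0.29 in the same order. Atg101 passed when arrays were centred on all probe sets (-0.58, adjusted p = 0.0346). Their correlations with Cav3 within a line kept their sign over 4 arrays each. For Ostf1 it was 0.92 in L629F cells and 0.98 in WT cells, and for Dync1li1 -0.963 in L629F cells and -0.998 in WT cells. In WT cells with iodide, Cav3 read 425.5 and 303.6 while Dync1li1 read 4146 and 5791 on the same arrays.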

How the data were processed

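RNA of 8 samples had been extracted with Trizol and columns, labelled with biotin and read on Affymetrix rat arrays, as the labels' protocols describe. The authors deposited linear-scale intensities from MAS5, per the submitters' processing notes. The MAS5 version and the scaling target: not given in the sources used here. With 2% of signals trimmed from each side, the mean signal was 500.2 on every array, so the deposited arrays share a scale by that measure. The platform annotation supplied symbols: 20832 probe sets had 1 symbol, 436 several and 9831 none. Names, gene order, positions and start regions came from RefSeq (GRCr8), which matched 20764 symbols.

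Probe sets for controls (57) and the dimmest 40%, ranked on mean log2(signal + 35.3), were dropped, and the brightest kept probe set stood for each gene (10047 genes). The constant is the 25th percentile of all signals. Values of log2(signal + 35.3) went into limma 3.58.1 (R 4.3.3), using lmFit and a trended eBayes, with a coefficient per group, 4 residual and 9.52 prior degrees of freedom. The 7 comparisons were two-sided and adjusted by Benjamini-Hochberg over all genes at 0.05. The script was tested on simulated data. The p-values measure the spread between 2 arrays a group, which may be technical.

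The members and lists were chosen with earlier results of these data known. Named genes were all probe sets of the members, up to 4 called genes of each list (or that of smallest p), and the 3 most and 1 least correlated genes. Alternatives were 14 changes of constant, filter, scaling, probe set, variance model, arrays, covariate or replicate term, and leaving out each of 8 arrays. Same-numbered arrays of different groups deviated together with correlations of 0.04 to 0.22, over 0.1 in 4 of 6 group pairs. The main fit did not take the numbers as pairs, and the printed shares of all genes called come from it. With a replicate term, 802 genes were called against 317 in the averaged receptor comparison, and 527 against 167 in the averaged iodide comparison.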

Additional observations from a re-analysis of the deposited data

Results flagged for a closer look

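Among the genes near Cavin3, 2 had line differences that pointed opposite ways in the 2 salts on every array. Smpd1, the acid sphingomyelinase, read 2706 and 2697 in L629F cells with iodide against 3019 and 3109 in WT cells with iodide, and 3346 and 3246 in L629F cells with chloride against 2959 and 3147 in WT cells with chloride. The L629F minus WT difference with iodide was 0.289 lower than that with chloride (-0.289 ± 0.18, limma interaction, adjusted p = 0.993). Tpp1, a lysosomal peptidase, read 5187 and 4920 in L629F cells with iodide against 5511 and 5189 in WT cells with iodide, and 6067 and 5564 in L629F cells with chloride against 5124 and 5461 in WT cells with chloride. Its difference between the salts was -0.216 (SE 0.17, adjusted p = 0.993). Neither passed the test of the difference itself. In Tpp1 the iodide arrays of the lines were kept apart only by 5187.3 in L629F cells against 5188.6 in WT cells. The share of all genes with such a pattern was not counted, so nothing is read from finding it in 2 genes near Cavin3.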

How the results depend on the processing

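Cavin3 stayed lower in L629F than in WT cells in each of the 20 alternatives that kept it, with averaged differences from -2.17 to -1.62 (-1.92 to -1.79 with an array left out). When the dimmest 60% of probe sets were dropped, Cavin3 itself left the test, so 0 members were called in the averaged, chloride and iodide receptor comparisons. Leaving out 1 array gave 0 to 1 members called within chloride and within iodide. List genes called numbered 2 in the averaged receptor comparison and 0 to 2 with an array left out. They were 1 with a constant of 1, with no dim filter, with the mean of probe sets or with every kept probe set, 4 centred on all probe sets, 0 without an intensity trend and 6 with the GAPDH covariate. In the averaged iodide comparison they were 2, and 0 to 4 with an array left out, 1 with no dim filter, 0 without a trend and 5 with the covariate. The causes of these moves were not tested, apart from the loss of Cavin3 by the filter. With the replicate block 1 member and 3 list genes were called in the averaged receptor comparison, where 802 of all genes were called against 317 without it, and 3 list genes in the averaged iodide comparison; Capza2, Rad18 and Flna passed under it. The count of all genes was 1381 when centred on all probe sets, 170 without a trend, 205 with no filter, 723 with the covariate and 97 to 335 with an array left out (38 to 266 in the averaged iodide comparison, against 167, 0 to 9 in L629F cells, against 9, and 0 to 42 in WT cells, against 47). The difference of beta-actin log2 ratios between the lines ran from 0.24 to 0.92 and that between the salts from -0.04493 to 0.56 with an array left out; it was -0.04493 without WT chloride replicate 1 and 0.32 with all arrays. The median SE of a difference was 0.20 within a line or salt and 0.14 averaged, which limits what 2 arrays a group can show, most of all for the dim probe sets of Cavin2, Cav1 and Cav2.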
